A study of Homo sapiens with 6 samples.

Results

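A total of 2109 regions of the autosomes carried both H3K4me3 and H3K27me3 peaks in Low-Chir and again in Boost-Chir neural progenitors, out of 15988 regions with H3K4me3 (13.19%). They were chosen by the presence of peaks in the 4 deposited peak lists. On chromosomes 1 to 22, H3K4me3 peaks of both conditions separated by at most 3 kb were merged into loci, and a locus was kept when it held at least 1 bp of each mark in each condition. Before a limit on size, 2555 loci met this, and 446 of them were set aside because they overlapped an H3K27me3 domain, joined in the same way, whose mean covered length over the conditions was 10 kb or more. Each H3K27me3 domain at the 2109 kept loci therefore had a mean covered length under 10 kb. In 1 condition a domain could still be longer, and a locus could overlap several domains. Because the measured peaks selected them, the presence of both marks is not a finding, and their lengths and heights are given below as a description with no test.

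The cells were neural progenitors differentiated toward midbrain dopamine neurons for 11 days from H9, a long-established line of human embryonic stem cells. All cultures began in medium with SHH C25II, LDN, SB431542, the Rock inhibitor Y-27632 and 0.7 µM CHIR99021, an inhibitor of the kinase GSK3 that activates WNT signalling. Boost-Chir cultures received 7.5 µM CHIR99021 from day 4 to day 10, and the labels do not state which concentration Low-Chir cultures received then. Both conditions ended in 3 µM CHIR99021 from day 10 with BDNF, GDNF, ascorbic acid, TGFβ3 and dibutyryl cAMP. Each mark was measured by chromatin immunoprecipitation and sequencing (ChIP-seq) in 1 library per condition, with antibodies from Abcam (H3K4me3) and Millipore (H3K27me3). No difference below has a replicate check. The cultures came from 1 cell line, and their identity could not be read from marker genes, because genes were not placed on the peaks' genome build.

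H3K4me3 is laid down by Trithorax-related methyltransferases and marks promoters that are active or poised. H3K27me3 is laid down by Polycomb repressive complex PRC2 and is found at silenced developmental genes. In embryonic stem cells and early progenitors many promoters of developmental regulators carry both marks. This bivalent state is commonly resolved to one mark or the other as cells commit to a lineage, and some promoters hold it well into neural development. Peaks from a population of cells cannot tell whether both marks sat on the same chromatin fibre or in different cells.

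The depth of the 4 libraries was read from the peaks themselves, as the genome-wide background in reads at a summit. For H3K4me3 it was 2.21 (Low-Chir) and 2.67 (Boost-Chir), a ratio of 1.21, and for H3K27me3 3.12 and 3.03, a ratio of 0.971. The autosomal H3K4me3 lists held 42647 and 45390 peaks that covered 37.4 and 48.3 Mb. The H3K27me3 lists held 25370 and 25893 peaks that covered 20.7 and 18.6 Mb. The H3K4me3 list of the deeper library thus covered more of the genome, and the part of depth in the differences in length was not tested. Heights are given below as summit reads divided by this background, which takes out the depth. Where a pair of values has no label, the first is Low-Chir and the second Boost-Chir.

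Kept loci had lower H3K4me3 summits than loci without H3K27me3, and lower H3K27me3 summits than loci in long domains. H3K4me3 covered 1560 bp of the median locus in Low-Chir cells and 1789 bp of it in Boost-Chir cells, with lengths from 200 to 21898 bp and from 200 to 22155 bp. H3K27me3 covered medians of 988 and 933 bp in the same order, from 17 to 11476 bp and from 5 to 8753 bp. The best H3K4me3 peak of a locus stood at a median of 10.4 times the background in Low-Chir and 10.5 times in Boost-Chir, from 23 and 28 summit reads. Loci with H3K4me3 and no H3K27me3 in either list, of which there were 10462, had medians of 15.8 and 17.96 times. For H3K27me3 the best peak of a kept locus stood at 7.69 and 7.25 times the background, from 24 and 22 summit reads, against 13.1 and 11.5 times at the 446 loci in domains of 10 kb or more. Ranked by −log10 q within its own list, the best H3K27me3 peak of the median kept locus was at percentile 81.0 (Low-Chir) and 78.4 (Boost-Chir), and the best H3K4me3 peak at 64.0 and 69.5. At the domain loci the best H3K27me3 peak was at percentile 98.6 and 98.0. The best H3K27me3 peak had to overlap the locus, but its summit could lie outside it. At the domain loci that summit was a median of 3086.5 and 2847 bp from the best H3K4me3 summit.

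The rule keeps loci on both sides of what could be called clear. At 1055 loci (50.02%) the best peak stood in the top 50% of all 4 lists. At 441 loci (20.9%) it stood in the lowest 25% of at least 1 list. Under 50 bp of H3K27me3 lay within the locus in 1 condition or both at 31 loci, and under 500 bp at 758 loci. The 3 members just under the domain limit had H3K27me3 domains with mean lengths of 9981, 9950 and 9891 bp. They lay on chromosome 10 at 88123470 to 88127205, on chromosome 22 at 46372209 to 46374407 and on chromosome 11 at 129242883 to 129246763. The 3 loci just over it had means of 10105, 10131 and 10131 bp, and the last pair shared 1 domain. These lay on chromosome 10 at 50604617 to 50606394 and on chromosome 19 at 51321279 to 51321977 and 51338462 to 51339465. All positions are on hg19 and counted from 1.

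The marks overlapped in part. Of the H3K4me3 length at kept loci, H3K27me3 also covered 38.0% (Low-Chir) and 34.3% (Boost-Chir). Of the H3K27me3 length within those loci, H3K4me3 also covered 55.0% and 64.0%. At loci in domains of 10 kb or more the shares were 72.6% and 60.7% of the H3K4me3 length. The best summits of the marks were a median of 1018 and 1008 bp apart, and within 250 bp of each other at 10.6% and 10.4% of kept loci. Peaks of the marks overlapped in both conditions at 1900 kept loci. They did not overlap at 121 loci (Low-Chir) and 97 loci (Boost-Chir), and 9 had no overlap in either condition. The whole H3K27me3 length lay under H3K4me3 at 294 loci (Low-Chir) and 517 loci (Boost-Chir), and the whole H3K4me3 length under H3K27me3 at 216 and 157.

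Around the best H3K4me3 summit, H3K27me3 showed a shallow dip with shoulders. At the summit itself 42.6% of kept loci were under an H3K27me3 peak in Low-Chir and 37.8% in Boost-Chir. At 250 bp to either side the shares were 39.1% and 34.5%, and at 1 kb they were 47.8% and 44.6%. H3K4me3 fell from 68.7% of positions at 250 bp to 32.8% at 1 kb in Low-Chir, and from 77.2% to 39.8% in Boost-Chir. From 1 kb outward the kept loci were thus more often under H3K27me3 than under H3K4me3, with 36.8% against 10.6% at 2 kb in Low-Chir and 33.8% against 14.8% in Boost-Chir. The profile centred on H3K4me3 sets that mark to 100% at distance 0. The H3K27me3 curve has no set value there, but the rule asks for that mark within each locus and limits its domain length. The height of the H3K27me3 curve, and its difference from the domain loci, are thus set in part by the rule.

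**Figure D1:**
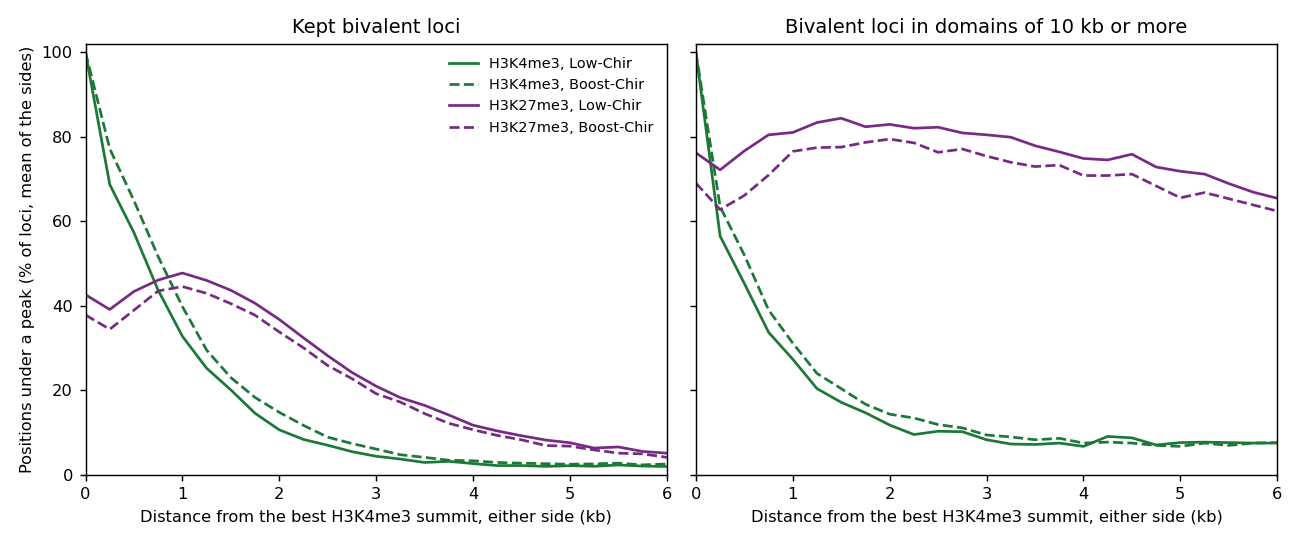
Share of positions under a peak (vertical axis, % of loci, mean of both sides) against the distance from the best H3K4me3 summit (horizontal axis, kb) at the 2109 kept loci (left) and the 446 loci in domains of 10 kb or more (right). Solid lines are Low-Chir and dashed lines Boost-Chir, H3K4me3 in green and H3K27me3 in purple. At kept loci H3K27me3 is highest near 1 kb (47.8% and 44.6%), while in the domains it is above 69% at the summit in both conditions.

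Much of the length under each mark was common to the conditions, and the best summit moved less for H3K4me3 than for H3K27me3. Of the H3K4me3 bases in Low-Chir, 81.0% were under H3K4me3 in Boost-Chir, and 69.6% of the Boost-Chir bases were under it in Low-Chir. For H3K27me3 the shares were 65.6% and 72.8%, lower than for H3K4me3 over the Low-Chir bases and higher over the Boost-Chir bases. The best H3K4me3 summit moved by a median of 225 bp and the best H3K27me3 summit by 539 bp. Not a single H3K27me3 base was common to the conditions at 138 kept loci (6.54%), although the mark was called in both, and the same held for H3K4me3 at 38 loci (1.802%). In domains of 10 kb or more, 84.2% of the Low-Chir H3K27me3 bases were under the mark in Boost-Chir. Across kept loci, Spearman's rho between the lengths in the conditions was 0.87 for H3K4me3 and 0.73 for H3K27me3. The points of this correlation share 2 libraries per mark, and it is a description only.

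H3K4me3 was somewhat longer in Boost-Chir, by less than at the median H3K4me3 locus. Before summit heights were matched, the increase was slightly more than at bivalent loci in long domains. The ratio of H3K4me3 length in Boost-Chir to that in Low-Chir had a median of 1.15 over kept loci, with quartiles of 0.907 and 1.45 among loci. The median was 1.28 over all 13950 loci with H3K4me3 in both lists and 1.11 at the 446 domain loci. Over those 13950 loci the lower quartile of the ratio was 1.075. The mark was longer at 1384 kept loci (65.6%) and shorter at 723 (34.3%), so the share longer was smaller than over the 13950 loci. Per unit of depth its summit hardly moved, with a median ratio of 1.02 against 1.08 over all loci. At least 1.5-fold longer H3K4me3 was found at 485 kept loci (23%), against 26.9% of all loci with the mark in both lists. At least 1.5-fold shorter H3K4me3 was found at 169 kept loci (8.01%), against 4.01%. At the domain loci both shares were higher, at 28.9% longer and 18.4% shorter. The split depends on the centre of the ratios, and with each ratio divided by the median over kept loci the counts were 315 longer and 284 shorter.

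**Figure D2:**
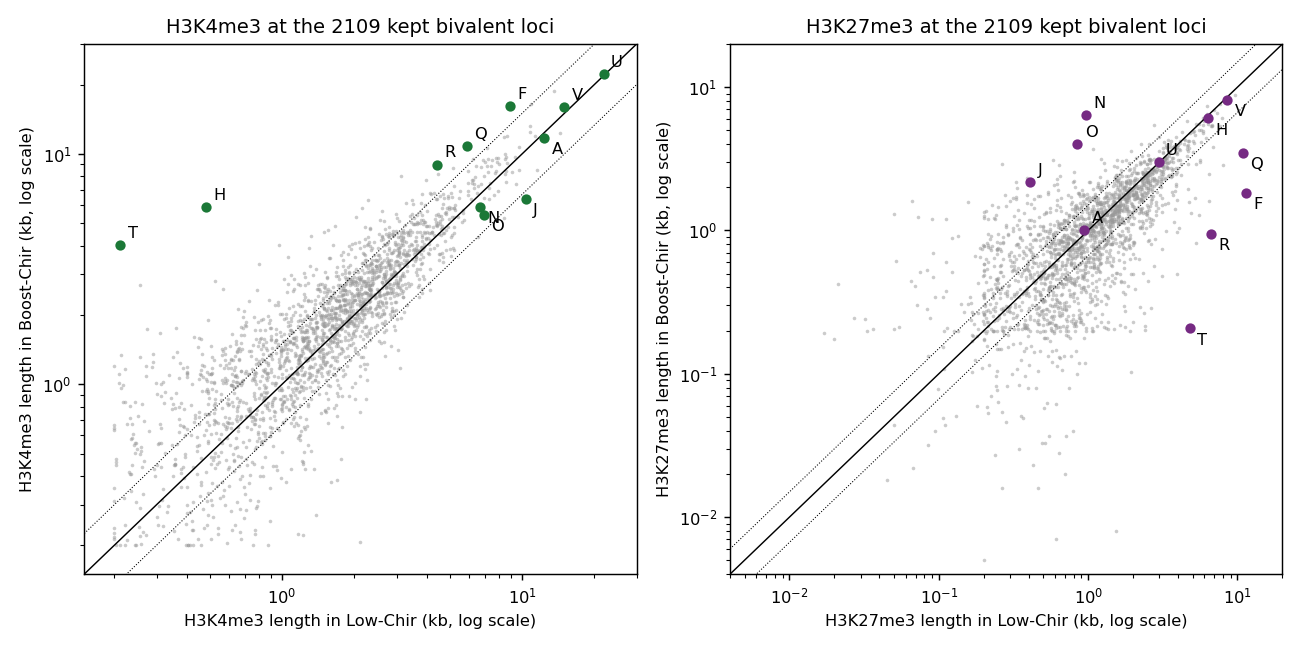
Length covered by H3K4me3 (left) and H3K27me3 (right) at each of the 2109 kept loci, in Low-Chir (horizontal axis) and Boost-Chir (vertical axis), in kb on log scales, with 1 library per axis. The solid line marks equal lengths, dotted lines a 1.5-fold change, and coloured points the lettered loci of the text. H3K4me3 lies closer to the line than H3K27me3, with 485 loci above and 169 below the dotted lines on the left, and 368 above and 573 below on the right.

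The change in H3K4me3 differed by class of locus. The median length ratio was 1.30 at loci with no H3K27me3, 1.28 at the 513 loci with H3K27me3 in Low-Chir alone, 1.15 at kept loci, 1.12 at the 420 loci with H3K27me3 in Boost-Chir alone and 1.11 in domains of 10 kb or more. The ratios of summit height per unit of depth were 1.10, 1.12, 1.02, 0.983 and 0.993 in the same order. Loci with H3K27me3 peaks in Low-Chir alone thus had a ratio near that of loci without the mark, and loci with them in Boost-Chir alone had one near that of the domains. Kept loci have lower H3K4me3 summits than loci without H3K27me3, so the ratios were also read within bins of the mean summit height. At 6 to 9 times the background the median length ratio was 1.10 at 642 kept loci and 1.24 at 838 loci without H3K27me3. From 9 to 12 times it was 1.15 and 1.26, from 12 to 15 times 1.16 and 1.30, and from 15 to 18 times 1.16 and 1.32. The kept loci were lower than the loci without H3K27me3 in each of these 4 bins. Against the domain loci they were higher at 6 to 9 times (1.10 against 1.04) and at 9 to 12 times (1.15 against 1.05). From 12 to 15 times and from 15 to 18 times they were level with the 52 and 25 domain loci there, at 1.16 against 1.16 in both bins. These differences have no test, since each condition has 1 library.

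**Figure D3:**
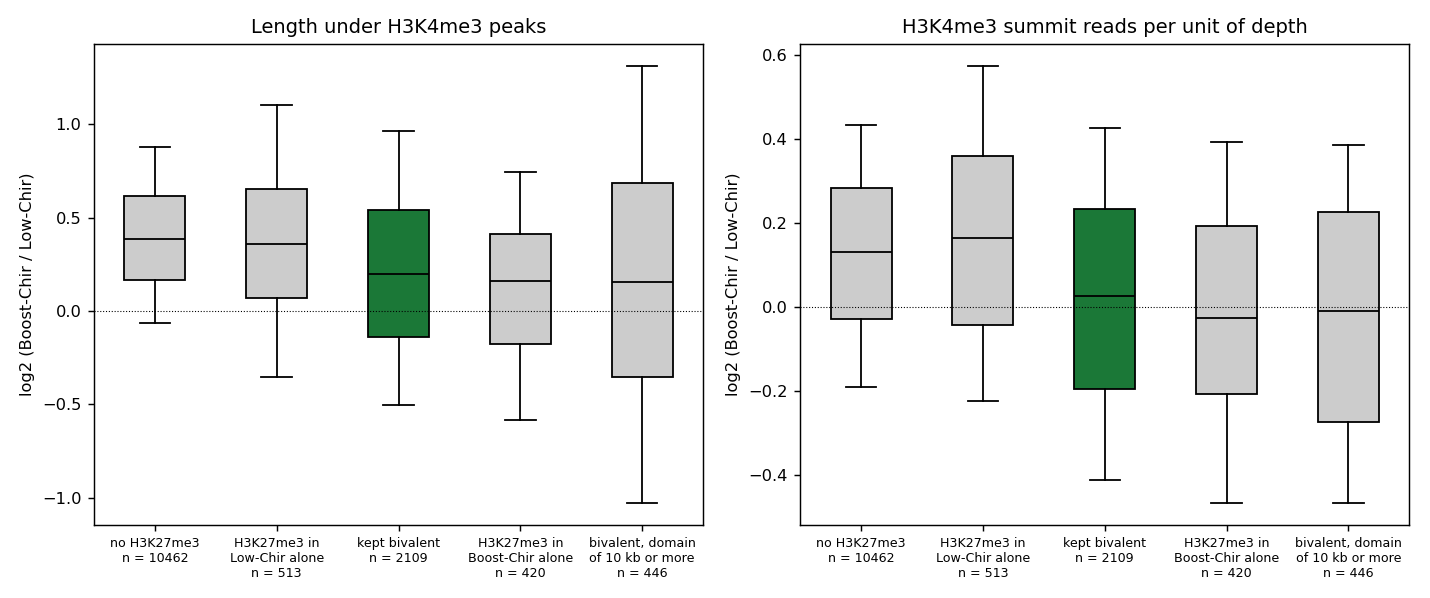
Change of H3K4me3 from Low-Chir to Boost-Chir (vertical axis, log2 of the ratio) by class of locus, for covered length (left) and summit reads per unit of depth (right). Lines in the boxes are medians, boxes span the quartiles, whiskers the 10th to 90th percentiles over loci, and n counts loci. The kept loci (green) have median ratios of 1.15 and 1.02, between the loci without H3K27me3 (1.30 and 1.10) and those in domains of 10 kb or more (1.11 and 0.993). Summit heights are not matched between the classes here.

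H3K27me3 was somewhat shorter in Boost-Chir at kept loci. The median length ratio was 0.924, with quartiles of 0.635 and 1.25, and the summit per unit of depth had a median ratio of 0.931. Over the 2555 loci with both marks in both lists, the median length ratio was 0.942, with quartiles of 0.677 and 1.165. The mark was shorter at 1223 kept loci (58.0%), longer at 840 (39.8%) and equal at 46. It was at least 1.5-fold shorter at 573 kept loci (27.2%), against 24.3% of the 2555 loci with both marks in both lists, and at least 1.5-fold longer at 368 (17.4%), against 14.8%. The 2109 kept loci are part of those 2555. In the 446 domain loci set aside the shares were 11.0% shorter and 2.24% longer. This length is counted within the H3K4me3 locus, of which H3K27me3 covered 79.6% in Low-Chir at the domain loci and 39.6% at kept loci, and that leaves less room for a gain in the domains. With H3K27me3 counted over the whole domain instead, 494 kept loci (23.4%) were at least 1.5-fold shorter, against 20.2% of all loci with both marks in both lists and 4.71% of the domain loci. Longer whole domains were found at 287 kept loci (13.6%), against 11.4% and 0.897%. Height did not follow this order, since the H3K27me3 summit ratio was 0.931 at kept loci and 0.879 at domain loci. Summits were lower at kept loci (7.69 against 13.1 times the background in Low-Chir), with less room to fall and still be called. The part of this in the ratios was not tested. The domain limit was set on the mean H3K27me3 length over the conditions. A domain long in 1 condition and short in the other can thus fall among the kept loci, as at locus F below (14.9 and 3.92 kb). The difference in these shares between kept and domain loci is therefore set in part by the rule.

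Domain size divided the kept loci further. At the 362 loci with a mean H3K27me3 domain under 1 kb, the mark was at least 1.5-fold shorter at 39.8% and longer at 23.8%. At the 865 loci from 1 to 3 kb the shares were 32.0% and 23.2%, and at the 882 loci from 3 to 10 kb they were 17.2% and 9.18%. The H3K27me3 summit stood higher in the larger domains, at a median of 6.08, 7.37 and 8.97 times the background in Low-Chir. Over whole domains the shares shorter were 37.6%, 27.7% and 13.4%, and those longer 23.8%, 18.8% and 4.31%. Changes of H3K27me3 length by 1.5-fold were thus rarer in the longer domains, where summits were higher, and the part of summit height in this was not tested. Domain size is the mean of the lengths in both conditions, so these bins are not independent of the change. The ratio of H3K27me3 summits ran the other way, with medians of 0.953, 0.936 and 0.919 from the shortest to the longest domains. Both lists had to hold a peak, and the lowest best summit at a kept locus stood at 4.16 and 3.96 times the background. Summits in the shortest domains (6.08 and 5.60 times) were nearer that floor and had less room to be lower. The part of this in the ratios was not tested. At least 1.5-fold shorter H3K4me3 was found at 4.14%, 7.17% and 10.4% of loci, from the shortest to the longest domains.

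The changes of the marks were at most weakly related. Spearman's rho between the length ratios of the marks was -0.09 over the 2109 loci, as a description over points that share the same 4 libraries. H3K4me3 was at least 1.5-fold longer and H3K27me3 at least 1.5-fold shorter at 157 kept loci (7.44%), against 7.12% of all loci with both marks in both lists. The reverse was found at 26 loci (1.23%), against 1.14%. Both marks were at least 1.5-fold longer at 75 loci (3.56%), against 2.97%, and both shorter at 40 (1.90%), against 1.72%. The 2555 loci include the kept ones, so these shares cannot lie far apart. At the 446 domain loci alone the shares were 5.61% and 0.673% for the opposite changes, 0.224% with both longer and 0.897% with both shorter. The room for a gain of H3K27me3 within the locus differed there as given above. Divided by their medians, the ratios gave 98 loci with more H3K4me3 and less H3K27me3 and 60 with the reverse. Both marks stayed within 1.5-fold at 812 kept loci (38.5%), against 40% of all loci with both marks in both lists and 46.9% of the domain loci.

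**Figure D4:**
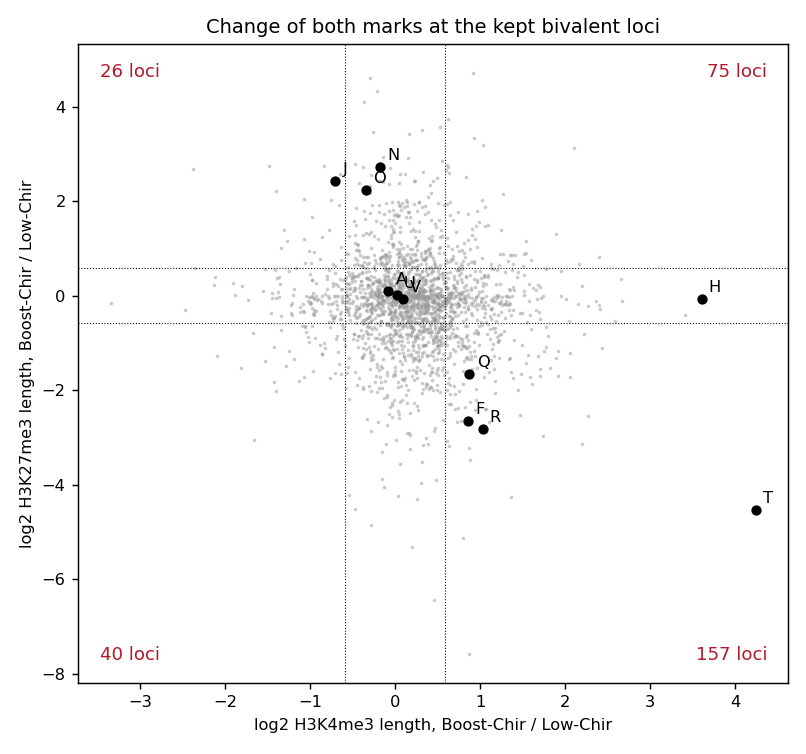
Change of H3K27me3 length (vertical axis) against change of H3K4me3 length (horizontal axis) at the 2109 kept loci, each as log2 of Boost-Chir over Low-Chir, with dotted lines at a 1.5-fold change. Red numbers count the loci in each corner beyond both lines, and black points are lettered loci. The corner with more H3K4me3 and less H3K27me3 holds 157 loci and the opposite corner 26.

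The balance of the marks at kept loci moved toward H3K4me3, the direction in which the whole lists differed. The median ratio of H3K4me3 to H3K27me3 length within a locus was 1.36 for Low-Chir and 1.72 for Boost-Chir. H3K4me3 was at least 2-fold longer than H3K27me3 at 745 loci in Low-Chir and 932 in Boost-Chir. H3K27me3 was at least 2-fold longer at 202 and 115 loci. By these 3 states, 1370 loci (64.96%) had the same balance in both conditions. A change from an even balance to H3K4me3 was found at 346 loci, and from H3K4me3 to an even balance at 174. A full turn from H3K27me3 to H3K4me3 was found at 22 loci and the opposite turn at 7. The depth of the H3K4me3 library differed between conditions as given above, and its part in this shift was not tested. Over the whole lists H3K4me3 covered 37.4 and 48.3 Mb, and H3K27me3 20.7 and 18.6 Mb. These states were not counted over all loci with both marks in both lists or at the domain loci. The shift can thus not be read as particular to the kept loci.

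The loci named here follow rules on rank and size of change and carry letters, since no gene was placed on them. The 5 loci whose best peaks ranked highest in all 4 lists kept both marks at similar lengths. Locus A (chromosome 16, 54958948 to 54973028) carried 12.4 kb (Low-Chir) and 11.7 kb (Boost-Chir) of H3K4me3, and 0.945 and 1.01 kb of H3K27me3. Its H3K4me3 summits stood at 19.9 and 19.5 times the background and its H3K27me3 summits at 11.8 and 10.2 times. Taken whole, the H3K27me3 domains that overlap locus A covered 3.35 and 3.68 kb, most of it outside the H3K4me3 locus. Locus B (chromosome 18, 76734104 to 76745698) carried 7.77 and 8.40 kb of H3K4me3 and 4.82 and 4.75 kb of H3K27me3. Locus C (chromosome 9, 23819132 to 23832693) carried 9.70 and 10.7 kb of H3K4me3 and 4.13 and 4.21 kb of H3K27me3. Loci B and C thus differed little between conditions in either mark. Locus D (chromosome 11, 16625050 to 16636845) carried 8.56 and 9.68 kb and 4.24 and 4.83 kb. Locus E (chromosome 9, 2012236 to 2019120) carried 5.43 and 5.33 kb and 2.93 and 3.16 kb. In these 5 loci no mark changed its length by 1.5-fold.

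At most 10% change in the length of both marks was found at 81 kept loci (3.84%). The shares were 4.66% of all loci with both marks in both lists and 8.52% of the domain loci. The 3 with the most H3K4me3 among these kept loci were wide. Locus U (chromosome 13, 100617397 to 100644881) carried 21.9 kb (Low-Chir) and 22.2 kb (Boost-Chir) of H3K4me3, with 2.96 and 2.99 kb of H3K27me3. Only 0.972 and 0.759 kb of it carried both marks at the same bases. Locus V (chromosome 14, 57265739 to 57284815) carried 14.98 and 15.9 kb of H3K4me3 and 8.55 and 8.14 kb of H3K27me3. There 5.87 and 6.57 kb were under both. Taken whole, the H3K27me3 domains that overlap locus V covered 14.2 and 12.8 kb. Locus W (chromosome 6, 27632669 to 27656576) carried 12.3 and 11.99 kb of H3K4me3 and 9.60 and 8.75 kb of H3K27me3. Similar lengths in both conditions were thus seen both where the marks lay apart and where they overlapped.

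The 4 greatest opposite changes all ran toward H3K4me3 in Boost-Chir. Locus F (chromosome 2, 63270323 to 63287442) carried 8.94 kb (Low-Chir) and 16.2 kb (Boost-Chir) of H3K4me3, and 11.5 and 1.82 kb of H3K27me3. It also had the greatest increase of H3K4me3 and the greatest decrease of H3K27me3 in bp among all kept loci. Inside and outside locus F, the whole H3K27me3 domain covered 14.9 kb (Low-Chir) and 3.92 kb (Boost-Chir). Its H3K27me3 summit stood at 9.61 times the background in Low-Chir, from 30 reads, and at 6.92 times in Boost-Chir, from 21 reads. Locus Q (chromosome 2, 171669112 to 171681434) carried 5.89 and 10.8 kb of H3K4me3 and 10.9 and 3.47 kb of H3K27me3. Its H3K4me3 summit stood at 12.7 and 21.7 times the background, while its H3K27me3 summit stood at 10.9 and 9.23 times. There H3K27me3 differed more in length than in height.

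Locus R (chromosome 10, 103532338 to 103545424) carried 4.41 kb (Low-Chir) and 8.98 kb (Boost-Chir) of H3K4me3, and 6.66 and 0.945 kb of H3K27me3. The 0.945 kb left in Boost-Chir lay wholly under H3K4me3. Locus T (chromosome 17, 79915006 to 79920711) went furthest by ratio, with 0.212 and 4.02 kb of H3K4me3 and 4.81 and 0.207 kb of H3K27me3. It is also the weakest of these as a bivalent locus. Its only H3K4me3 peak in Low-Chir had 11 summit reads and its only H3K27me3 peak in Boost-Chir had 13, so that each condition held 1 well-covered mark and 1 short peak of the other. The Low-Chir H3K4me3 peak lay at the far end of the locus, as the maps of peaks at 6 loci show. Locus S (chromosome 7, 157471029 to 157487083) was among the 4 greatest decreases of H3K27me3, with 8.03 and 2.84 kb, and had 7.13 and 10.6 kb of H3K4me3.

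**Figure D5:**
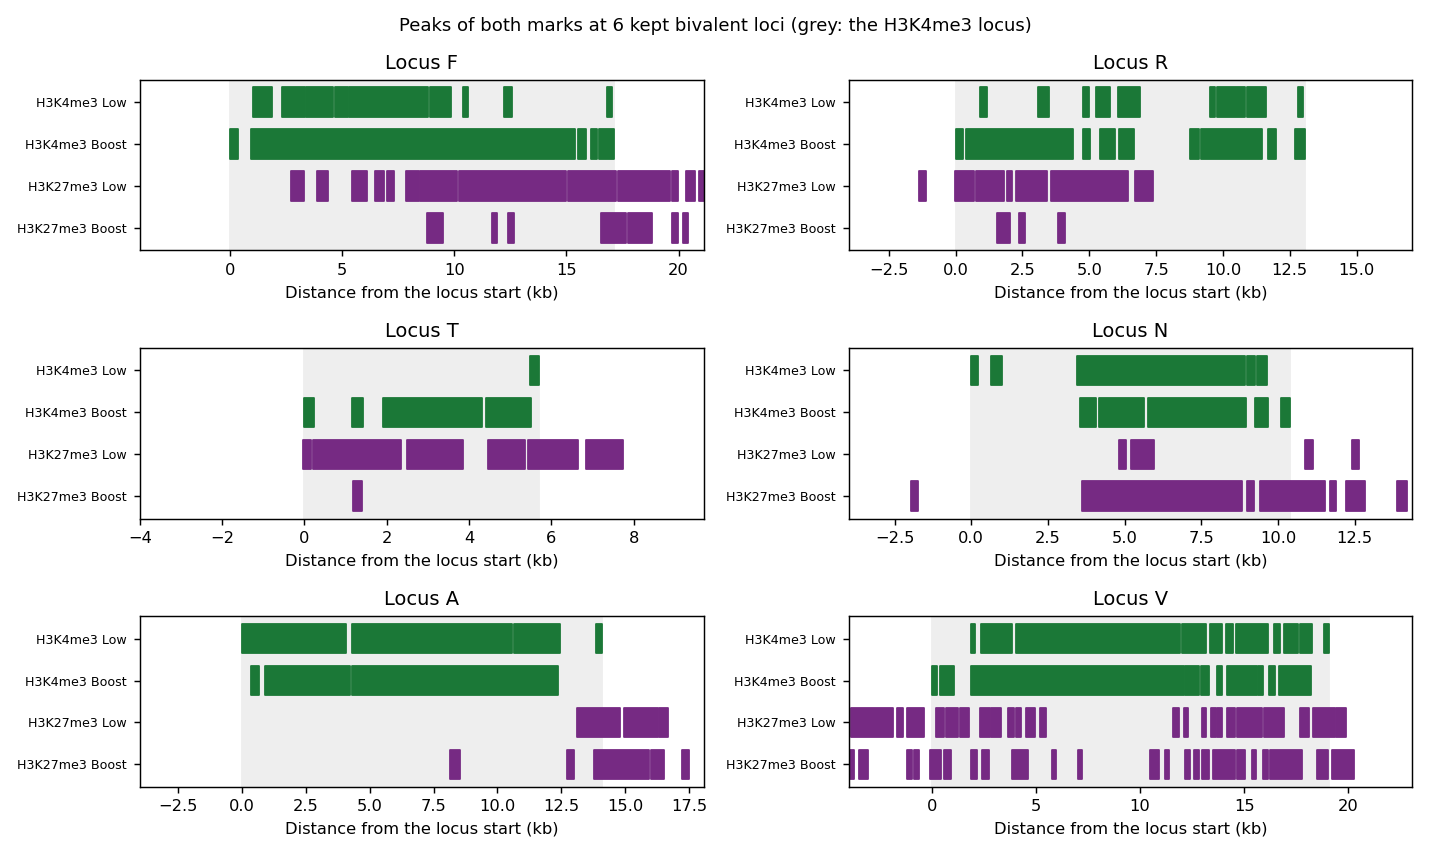
Peaks of H3K4me3 (green) and H3K27me3 (purple) in Low-Chir and Boost-Chir (rows) at 6 kept loci, against the distance from the start of the locus (horizontal axis, kb), with the H3K4me3 locus in grey. Each bar is a peak of 1 library. Loci F, R and T have more H3K4me3 and less H3K27me3 in Boost-Chir, locus N has more H3K27me3 (0.972 against 6.41 kb), and loci A and V differ little.

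Loci H, G and I led the increases of H3K4me3 beside F. Locus H (chromosome 6, 166578412 to 166584968) carried 0.482 kb (Low-Chir) and 5.86 kb (Boost-Chir) of H3K4me3, with a summit at 4.52 and 11.2 times the background. The Low-Chir H3K4me3 of locus H was 1 peak with 10 summit reads, and no kept locus had fewer in that list. H3K27me3 within the locus covered 6.39 and 6.04 kb, so H3K4me3 differed without a like difference in H3K27me3. The whole H3K27me3 domain covered 10.8 and 8.84 kb. In Boost-Chir 5.37 kb of the locus was under both marks, against 0.482 kb in Low-Chir. Locus G (chromosome 17, 6539901 to 6561694) carried 10.9 and 16.5 kb of H3K4me3 and 3.36 and 3.14 kb of H3K27me3. Locus I (chromosome 11, 63991198 to 64021517) carried 13.6 and 18.7 kb of H3K4me3 and 5.61 and 3.12 kb of H3K27me3. Its H3K4me3 summits were level at 15.4 and 15.3 times the background.

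Gains of H3K27me3 were smaller in bp than the losses at F and Q. Locus N (chromosome 1, 165317028 to 165327414) carried 0.972 kb (Low-Chir) and 6.41 kb (Boost-Chir) of H3K27me3, with a summit at 6.08 and 9.56 times the background. Its H3K4me3 covered 6.68 and 5.90 kb, and the H3K4me3 summit stood at 17.2 and 10.8 times. The stretch under both marks went from 0.972 to 5.55 kb. Locus O (chromosome 5, 88175567 to 88186738) carried 0.848 and 4.01 kb of H3K27me3 and 6.92 and 5.44 kb of H3K4me3, whose summit stood at 24.0 and 17.2 times. Locus P (chromosome 17, 8904828 to 8910175) carried 0.858 and 3.97 kb of H3K27me3 and 3.11 and 1.18 kb of H3K4me3. Locus L (chromosome 8, 77585273 to 77600001) carried 2.76 and 5.42 kb of H3K27me3 and 11.5 and 8.49 kb of H3K4me3. All 4 had less H3K4me3 in Boost-Chir, against the direction of the median locus. They do not stand for all kept loci with longer H3K27me3 in Boost-Chir. Of those, H3K4me3 was longer too at 524 loci and shorter at 314. With both changes at least 1.5-fold, the counts were 75 and 26.

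Locus L also stood among the 4 greatest decreases of H3K4me3. The first of these was locus J, on chromosome 4 at 30717898 to 30728817, with 10.4 kb (Low-Chir) and 6.36 kb (Boost-Chir) of H3K4me3, and 0.409 and 2.19 kb of H3K27me3. The stretch under both marks there was 0.409 and 0.373 kb, so most of the H3K27me3 of Boost-Chir lay outside H3K4me3. Locus K (chromosome 17, 70111645 to 70121495) carried 8.42 and 5.29 kb of H3K4me3 and 3.52 and 4.03 kb of H3K27me3. Locus M (chromosome 2, 66800987 to 66810133) carried 6.57 and 4.37 kb of H3K4me3 and 4.58 and 5.83 kb of H3K27me3. At loci K and M the H3K27me3 summits were nearly level between conditions, at 9.93 and 10.2 times the background for K and 10.2 in both for M.

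Kept loci were found on every autosome. Their share of the H3K4me3 loci ran from 8.02% on chromosome 19 (87 of 1085) to 18.66% on chromosome 18 (53 of 284), with 17.88% on chromosome 8 and 17.12% on chromosome 13. Neighbouring kept loci were a median of 656 kb apart, and 172 of 2087 neighbouring pairs (8.24%) lay within 50 kb. Of the kept loci, 64 (3.03%) lay within 50 kb of 1 of the 370 H3K27me3 domains of 10 kb or more. The rule had set aside the loci that overlap such domains, so that count is set in part by the rule. The same shares over all H3K4me3 loci were not computed, so neither can be read as a trait of kept loci. In sum the kept loci held 4.12 Mb (Low-Chir) and 4.80 Mb (Boost-Chir) of H3K4me3, which is 11.0% and 9.95% of the autosomal length under that mark. They held 2.85 and 2.57 Mb of H3K27me3, which is 13.8% of that mark's length in both conditions.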

How the data were processed

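ChIP-seq peak lists of H3K4me3 and H3K27me3, 1 library per mark and condition, were analysed, and the input samples had no processed file here and were not analysed. Reads were handled with cutadapt 1.6, BWA 0.7.12 and Picard on hg19, per the submitters' processing notes. Neither the program that called peaks nor its cut-off was given in the sources used here. Each library was called against its condition's input, as peak names in the deposited lists show. The authors' lists give for each peak a ratio to the local background (fold enrichment), with a −log10 p-value and a −log10 q-value, and a deposited score that was not used. Ranks within a list use −log10 q.

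Summit reads and the local background were solved from fold and p, taking fold as (reads + 1) over (background + 1) and p as a Poisson tail. The deposited −log10 p was returned within 0.001 for 100% of peaks in each list. The code was checked on simulated peaks made with the same formulas. Lengths are bases under peaks within a locus. Heights are those of the best peak that overlaps the locus, wherever its summit lies. A change is a ratio of at least 1.5-fold, read against all loci with the mark or marks in both lists. With 1 library per group no p-value was computed. Python 3.11.15, numpy 2.4.6, scipy 1.17.1, pandas 2.3.3 and matplotlib 3.10.9 were used.

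The text names the 5 loci whose lowest rank over the 4 lists was highest, and the 4 with the greatest change in bp per mark and direction. It also names the 4 with the greatest opposite changes. Further named are the 3 with the most H3K4me3 and at most 10% change in the length of both marks. The 3 on each side of the domain limit are given as well. The members, these rules and the gene lists were chosen with earlier results of these data known. No genome or annotation of hg19 was used here, so the gene lists and cell type markers were not applied, no locus was given a gene name, and no sequence is printed.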

Additional observations from a re-analysis of the deposited data

Results flagged for a closer look

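Chromosome X lies outside the rule and was not part of the comparisons. Of 591 H3K4me3 loci there, 28 met the rest of the rule, or 4.738%, against 13.19% of the autosomal H3K4me3 loci. At these 28 loci the median ratio of Boost-Chir to Low-Chir length was 1.02 for H3K4me3 and 1.15 for H3K27me3. It is listed here because the mark pair was present in data that the rule leaves out. The difference from the autosomes was not tested.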

How the results depend on the processing

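No paired analysis was possible because the groups hold 1 library each and so share no second replicate number. The 13 results were recomputed under 12 alternatives, 4 of them chosen after seeing the data, which gave 134 values: 91 stayed, 43 moved and 0 turned direction. A count stayed if it was within 1.5-fold of its main value. A median ratio or a share stayed if it lay in a 95% interval over loci, which does not measure spread between libraries. Only median ratios could be labelled as turned, so the 0 says nothing about the counts and shares. In every setting where they were counted, longer H3K4me3 outnumbered shorter, shorter H3K27me3 outnumbered longer, and more H3K4me3 with less H3K27me3 outnumbered the reverse. With the top 50% of each list by −log10 q, 908 loci were kept, with an H3K4me3 length ratio of 1.18, H3K4me3 longer at 269 and shorter at 74, H3K27me3 longer at 178 and shorter at 265, and opposite changes at 90 and 14. With at least 500 bp of each mark, 1232 loci were kept, and the same counts were 240, 72, 149, 222, 59 and 8, with 45.1% and 41.0% of H3K4me3 length under H3K27me3 in Low-Chir and Boost-Chir. With 2-fold in place of 1.5-fold the counts were 200, 70, 191, 344, 43 and 8. The first 2 of these settings keep fewer loci and the last asks for more, but shares of the kept loci moved as well. With the top 50% of each list, longer H3K4me3 stood at 29.63% of kept loci, against 23% before. With at least 500 bp, shorter H3K27me3 stood at 18.02% against 27.17%, more H3K4me3 with less H3K27me3 at 4.79% against 7.44%, and the reverse at 0.649% against 1.23%. The cause was not tested. With summits at least 6 times the background (added), 1234 loci were kept, the H3K4me3 length ratio was 1.09, H3K4me3 was longer at 251 and shorter at 137, H3K27me3 longer at 204 and shorter at 377, opposite changes stood at 84 and 27, and 41.1% of H3K4me3 length was under H3K27me3 in Low-Chir. With ratios divided by their median (added), H3K4me3 was longer at 315 and shorter at 284, and opposite changes stood at 98 and 60. The share of H3K4me3 length under H3K27me3 in Low-Chir and Boost-Chir was 41.1% and 37.1% with peaks joined within 1 kb, 40.7% and 36.8% where the marks' peaks overlapped, 32.2% and 29.3% with domains of 5 kb or more dropped, and 44.7% and 39.2% with no domain dropped, where the H3K27me3 summit ratio was 0.922. The cause of these shifts in share was not tested. With the same number of peaks in both lists (added), no value moved, and the H3K4me3 length ratio was 1.13. The lists hold called peaks alone, so signal under the calling limit is not seen, and a mark missing from 1 list may lie just under it.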
